A study of Mus musculus with 9 samples.

Results

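The sites described here are stretches of RNA at which both SUZ12 libraries of a crosslinking experiment had a peak and neither EZH2 library had one. They were chosen by the peak calls themselves: same-strand peaks of 4 libraries that overlapped by at least 1 bp were merged into 44277 sites, and 461 of these held a peak of SUZ12 replicate 1 and of SUZ12 replicate 2 and none of EZH2. They are called SUZ12-pair sites below. Since presence and absence of peaks made the choice, the number, strength and width of these peaks are given as a description, without a test.

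Polycomb repressive complex 2 (PRC2) is a chromatin regulator that methylates lysine 27 of histone H3 and keeps developmental genes silent. EZH2 is its methyltransferase subunit, and SUZ12 is the scaffold subunit on which the core complex and its accessory proteins assemble. PRC2 also binds RNA, and UV crosslinking fixes a protein to the RNA that it touches directly.

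All libraries came from EL 16.7 mouse embryonic stem cells, female, of CAST/Ei x 129/Sv/Jae background, differentiated for 7 days. The cells stably expressed the BirA biotinylase and an Avi-GFP-tagged subunit, mEzh2 in clone 4A (EZH2 replicate 1) and clone 5A (EZH2 replicate 2), and mSuz12 in clone 8E (SUZ12 replicate 1) and clone 8H (SUZ12 replicate 2). In dCLIP, RNA is crosslinked to protein by UV light, trimmed with RNase, captured on streptavidin through the biotinylated tag and sequenced. Each library is thus 1 clone that expresses a tagged protein, and the spread between replicates includes the difference between clones. An empty-vector dCLIP library and 4 PRO-seq libraries of the series were not analysed here, so the background of untagged cells is not set against these sites.

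The EZH2 lists held 10468 and 13267 peaks and the SUZ12 lists 11580 and 13951. The false discovery rate (FDR) of a peak is the peak caller's value in the deposited lists and is used to describe peaks within a library. Positions are in the mouse build mm9, counted from 1. No annotation or genome of mm9 was at hand, so sites are named by position, and genes, exons and base composition were not analysed here. For the same reason the labelled cell type was not checked against marker genes.

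The SUZ12-pair sites made up 1.04% of all sites. Every other pair of libraries also had sites of its own, in similar numbers. The count was 364 for both EZH2 libraries (0.822% of all sites), 449 for EZH2 replicate 1 with SUZ12 replicate 1 (1.01%) and 401 for EZH2 replicate 1 with SUZ12 replicate 2 (0.906%). EZH2 replicate 2 shared 449 such sites with SUZ12 replicate 1 (1.01%) and 513 with SUZ12 replicate 2 (1.16%). The SUZ12 pair was therefore the second highest of the 6, below a pair that mixes the proteins.

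Set against the sites that 2 libraries had in common, 461 of the 1130 sites with a peak in both SUZ12 libraries lacked EZH2, or 40.8% (95% Wilson interval 38.0 to 43.7%, which covers counting error only). In the 4 mixed pairs, the share of common sites that lacked both remaining libraries was 37.7 to 43.2%, and in the EZH2 pair it was 35.1% (32.2 to 38.0%). The share of the SUZ12 pair lay within the range of the mixed pairs. The remaining 669 sites of both SUZ12 libraries had EZH2 peaks in 1 library (267 sites) or in both (402 sites).

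**Figure D1:**
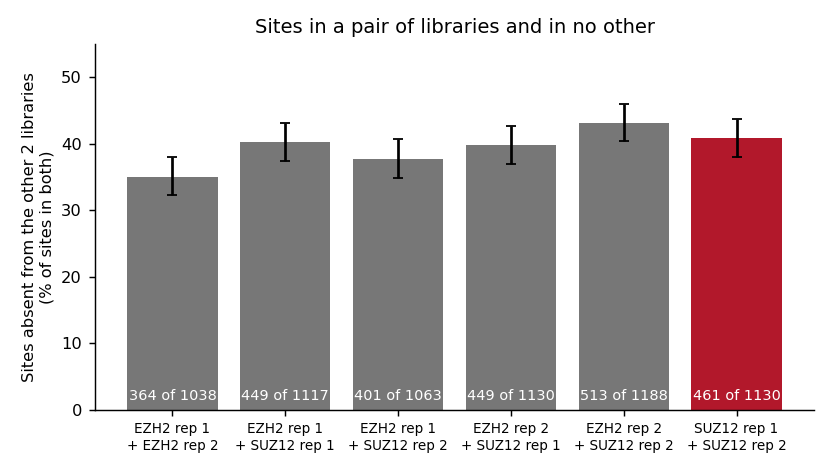
Share of the sites common to 2 libraries that had no peak in the other 2 libraries (y axis, %), for the 6 pairs of libraries; bars are shares, lines 95% Wilson intervals, and the numbers in the bars are sites. The SUZ12 pair (red, 40.8%) stands between the mixed pairs, which run from 37.7 to 43.2%, and above the EZH2 pair at 35.1%.

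Each of the 461 sites held exactly 1 peak per SUZ12 library. The sites were short, with a median length of 190 bp (quartiles 165 to 246 bp), and together covered 102 kb. By comparison, sites of the EZH2 pair had a median of 224 bp, those of the mixed pairs 206 to 222 bp and those in all 4 libraries 290 bp. SUZ12 peaks were narrower in general, with median widths of 151 and 138 bp in replicates 1 and 2 against 177 and 188 bp in EZH2. Inside the SUZ12-pair sites the medians were 157 and 136 bp, close to those of all peaks of the same library. The peak was wider in replicate 1 at 296 sites and in replicate 2 at 162.

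Of the sites, 5 exceeded 500 bp. The longest, on the plus strand at chr7:26452884-26456034, owed its 3151 bp to replicate 1, whose peak spanned the whole site, while the peak of replicate 2 was 133 bp wide. Next came a site of 753 bp on the plus strand at chr10:126500882-126501634, where replicate 2 gave the wide peak and replicate 1 a peak of 261 bp. The other three lay on the minus strand at chr17:35971674-35972298, on the minus strand at chr1:71664865-71665407 and on the plus strand at chr4:149442855-149443380. In all of these 5 long sites, 1 clone contributed a peak at least 2 times as wide as that of the other.

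The rule required the peaks of both clones to overlap, which bears on how close their summits lie. The distance between the summits had a median of 41 bp (quartiles 17 to 79 bp). At 77 sites the summits lay within 10 bp of each other. The median was also 41 bp for EZH2 replicate 1 with SUZ12 replicate 1, and 55 to 59.5 bp for the remaining pairs. Summits lay within 50 bp at 268 sites (58.1%), against 44.2% of the sites of the EZH2 pair and 43.2 to 56.1% of those of the mixed pairs. The part of the higher share that comes with the narrower SUZ12 peaks was not tested. The peaks of both clones shared a median of 100 bp. At 21 sites they shared fewer than 25 bp, and the smallest overlap was 3 bp.

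By their medians, the peaks at these sites were stronger than all peaks of their library and weaker than those at sites in all 4 libraries. In SUZ12 replicate 1 their FDR had a median of 0.00109, with quartiles of 0.000119 and 0.00363, against a median of 0.00203 over all peaks of that library. In replicate 2 the median was 0.000633, with quartiles of 6.25e-05 and 0.00317, against 0.00112 over all peaks. Sites in all 4 libraries were far stronger, with medians of 8.17e-06 and 7.28e-07 in the same SUZ12 libraries. Peaks found in that SUZ12 library alone were weaker, at 0.00245 and 0.00163. Sites that a SUZ12 library shared with a single EZH2 library had medians of 0.000841 and 0.000644, so sharing with the other SUZ12 clone or with an EZH2 clone went with much the same strength.

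By rank within its own list, the median SUZ12-pair peak stood at percentile 37.3 in replicate 1 and 39.9 in replicate 2, where 0 is the strongest. The stronger 50% of the list held 284 of the 461 peaks in replicate 1 (61.6%) and 274 in replicate 2 (59.4%), and 86 sites (18.7%) were in the weaker 50% of both. There were 22 sites in the strongest 10% of both lists, 57 in that of replicate 1 alone, 43 in that of replicate 2 alone and 339 in neither. Strength in one clone was loosely related to strength in the other. Across the 461 sites, Spearman's rho of the FDR was 0.234 and Pearson's r of log10 FDR 0.260, while across the 402 sites in all 4 libraries rho was 0.493. The latter sites span a wider range, down to an FDR of 1.90e-54 in replicate 1 and 2.01e-64 in replicate 2. The part of this range in the higher rho was not tested. These are correlations across sites of 2 libraries and not across replicates. The FDR of both clones differed by over 100-fold at 87 sites. It was lower in replicate 1 at 216 sites and in replicate 2 at 245. At 1 site, chr5:32346147-32346305 on the plus strand, the caller's own name marks the replicate 1 peak as failing its FDR limit, at 0.0101.

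**Figure D2:**
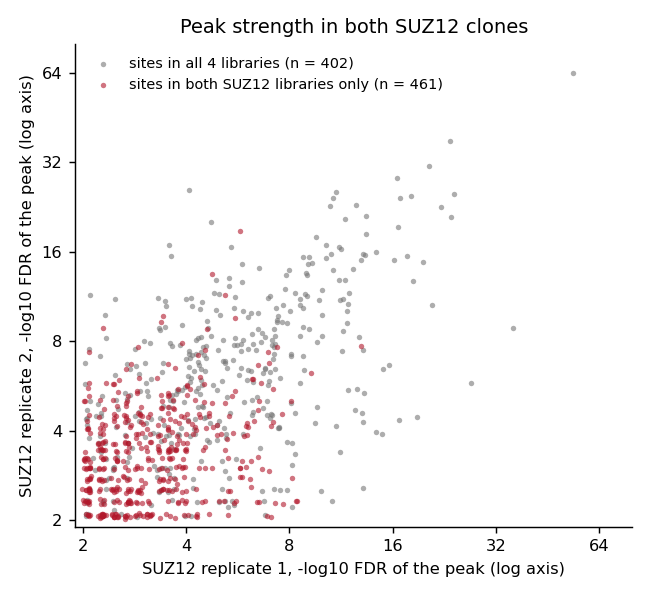
Strength of the peak in SUZ12 replicate 1 (x axis) and replicate 2 (y axis) as -log10 FDR, on log axes, with a point per site. The 461 SUZ12-pair sites (red) spread from the limit of the lists to an FDR of 1.10e-13 in replicate 1 and 1.61e-19 in replicate 2, and the 402 sites in all 4 libraries (grey) have lower medians, 8.17e-06 and 7.28e-07.

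Sites without EZH2 were rare among the strong ones. For this description, sites common to both SUZ12 libraries were sorted by the rank of their weaker peak, with no test, since the same calls chose the sites. Of the 46 sites with both peaks in the strongest 1%, 0 lacked EZH2, which allows a share of up to 7.71% (Wilson). The share without EZH2 was 9.80% of 102 sites at percentiles 1 to 5, and 12 of 63 sites lacked it at 5 to 10 and 63 of 210 at 10 to 25. The share was 47.8% of 205 sites at 25 to 50 and 55.2% of 504 above 50. The EZH2 pair climbed in the same order from 0% of 48 sites to 48.4% of 438, and each mixed pair from at most 2.08% to between 51.2 and 60.5%.

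**Figure D3:**
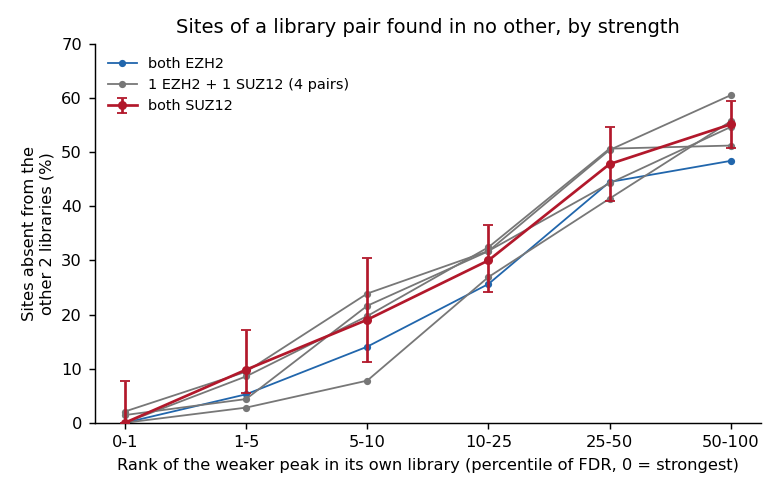
Share of the sites common to 2 libraries that no other library had (y axis, %), by the percentile of the weaker peak in its own list (x axis); the red line is the SUZ12 pair with 95% Wilson intervals, the blue line the EZH2 pair and the grey lines the 4 mixed pairs. The SUZ12 line climbs from 0% to 55.2% along with the others.

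The 20 sites with the lowest FDR in their weaker clone lay on 15 chromosomes, 10 of them on the plus strand. Their weaker FDR reached at most 1.74e-05 and their median length was 285 bp. The strongest was on the minus strand at chr4:155552074-155552453. Its FDR was 1.10e-13 in SUZ12 replicate 1 and 1.91e-08 in replicate 2, and its peaks were 349 and 319 bp wide, but the summits were 300 bp apart. An EZH2 replicate 1 peak lay 978 bp away on the same strand, and the nearest EZH2 replicate 2 peak was 3249 bp away.

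The next site, on the plus strand at chr5:123516411-123516709, had an FDR of 4.32e-08 in SUZ12 replicate 1 and 2.30e-08 in replicate 2, with summits 5 bp apart. Here the nearest EZH2 peaks were 36522 and 36490 bp away in replicates 1 and 2. A site on the plus strand at chr6:124883875-124884040 had peaks of almost equal width, 161 and 163 bp, with summits 2 bp apart and an FDR of 3.18e-07 and 2.16e-07. EZH2 peaks lay 966 and 1237 bp from it. The plus-strand site chr8:86449787-86449982 had an FDR of 1.02e-07 and 1.79e-07, and both EZH2 libraries had a peak close by, at 205 and 565 bp. These 4 sites had low FDR in both clones, yet differed widely in how near EZH2 came.

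Others were strong in 1 clone. The plus-strand site chr10:126500882-126501634 had the lowest FDR of any SUZ12-pair site, 1.61e-19 in SUZ12 replicate 2, but 1.74e-06 in replicate 1. An EZH2 replicate 1 peak lay 286 bp from it. The minus-strand site chr15:82958049-82958483 had an FDR of 3.49e-14 in replicate 2 and 1.74e-05 in replicate 1. At the minus-strand site chr3:122321646-122322090 the values were 3.61e-12 and 6.44e-06 in the same order. Replicate 1 was the stronger on the minus strand at chr11:30853943-30854380, with 5.47e-10 against 5.33e-07, and on the plus strand at chr7:148633565-148634003, with 8.25e-09 against 9.12e-06. Of the 20 sites, 12 had the lower FDR in replicate 1 and 8 in replicate 2, so neither clone led throughout.

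On chromosome X, one copy of which gains H3K27 methylation when it is inactivated in female cells, 2 of the 20 strongest sites were found. The first, on the minus strand at chrX:71486306-71486643, had an FDR of 2.34e-07 and 1.62e-06 in SUZ12 replicates 1 and 2, and EZH2 peaks 10299 and 4709 bp away. The second, on the plus strand at chrX:12649475-12649854, had 3.10e-07 and 9.47e-06. EZH2 replicate 2 had a peak 407 bp from it. In all, X carried 16 SUZ12-pair sites, 3.47% of them, next to 3.57% of all sites.

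Although no EZH2 peak overlapped these sites, EZH2 peaks were common beside them. The nearest same-strand EZH2 peak of either library was a median of 3.67 kb away (quartiles 0.978 to 18.8 kb). It lay within 1 kb of 117 sites (25.4%, Wilson interval 21.6 to 29.5%), within 5 kb of 256 (55.5%, 51.0 to 60.0%) and within 50 kb of 393 (85.2%, 81.7 to 88.2%). At 102 sites both EZH2 libraries had a peak within 5 kb, and at 299 within 50 kb. No like count of both libraries is given for other sets of sites. Sites of 1 SUZ12 library alone, whose peaks were also weaker, had EZH2 within 5 kb less frequently. The share was 41.4% of 9396 sites of replicate 1 and 38.0% of 11755 of replicate 2. Within 50 kb these sites differed little from the SUZ12-pair sites, at 84.1% and 82.3% in the same order. Sites with both SUZ12 libraries and a single EZH2 library had another EZH2 peak within 5 kb in 53.9% of 267 cases. Within 50 kb the share was 81.3%. For the mirror set, the 364 sites of the EZH2 pair, a SUZ12 peak lay within 5 kb of 56.9% and within 50 kb of 88.5%. Neighbours from the other protein were thus about as frequent for either pair.

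Peaks beside a site are given for each library as a description, with no test. The rule bears on them, since each site already holds the peak of both SUZ12 libraries, which is not counted as a neighbour, while EZH2 peaks could lie only beside it. Another same-strand peak within 5 kb was found at 36.7% and 41.0% of the SUZ12-pair sites in EZH2 replicates 1 and 2, a mean of 38.8 ± 3.07% (SD, n = 2). It was found at 37.1% and 31.5% in SUZ12 replicates 1 and 2, a mean of 34.3 ± 3.99% (SD, n = 2). The groups overlapped, and the difference, SUZ12 minus EZH2, of -4.56 percentage points was close to the spread between clones. It was 0.434 between the libraries numbered 1 and -9.54 between those numbered 2. Without SUZ12 replicate 2 it was -1.74, without EZH2 replicate 2 -2.39 and without SUZ12 replicate 1 -7.38.

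Within 1 kb, EZH2 replicate 1 and EZH2 replicate 2, each taken alone, had such a peak at 15.4% of the sites. The shares were 13.7% and 8.46% in SUZ12 replicates 1 and 2. Both EZH2 values were above both SUZ12 values, and the difference, SUZ12 minus EZH2, was -4.34 percentage points. Within 50 kb the shares ran from 73.5 to 76.6% over the 4 libraries and the difference was 0.108 percentage points. A lower share in the libraries that define the set was seen for every pair: at 5 kb, the libraries of a pair minus the remaining libraries gave -4.48 to -10.2 percentage points over the other 5 pairs, whichever proteins they held. The SUZ12 pair, at -4.56, was near the small end of that range.

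**Figure D4:**
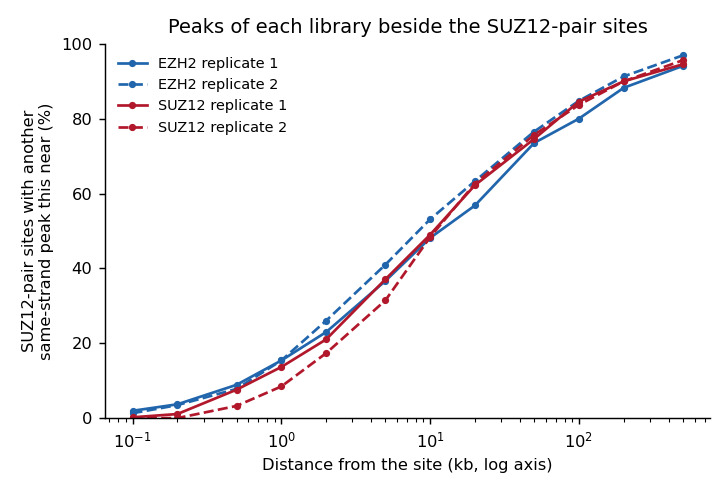
Share of the 461 SUZ12-pair sites with another same-strand peak of each library (y axis, %) within a distance from the site (x axis, kb, log axis); blue is EZH2, red SUZ12, solid lines replicate 1 and dashed lines replicate 2. The EZH2 lines start above the SUZ12 lines, and at 50 kb all 4 libraries lie between 73.5 and 76.6%.

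The neighbouring EZH2 peaks lay on both sides in near equal numbers. Of the 117 sites with one within 1 kb, the nearest lay towards the 5′ end of the RNA strand at 60 and towards the 3′ end at 57. Within 5 kb the counts were 127 and 129. The nearest EZH2 peaks within 1 kb ranked slightly above the middle of their lists, with a median percentile of 44.6. Of the 117, 64 (54.7%) were in the stronger 50% and 20 (17.1%) in the strongest 10%. No like values are given for EZH2 peaks near other sites. Among the 20 strongest SUZ12-pair sites, 8 had an EZH2 peak within 1 kb, 12 within 5 kb and 19 within 50 kb.

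The exception among those 20 was on the minus strand at chr18:70631973-70632305, with an FDR of 1.11e-07 and 4.55e-08 in SUZ12 replicates 1 and 2. Its nearest EZH2 peak lay 54.3 kb away and its nearest other SUZ12 peak 694 kb away. In all, 68 sites (14.8%) had no EZH2 peak within 50 kb. This share was not particular to the SUZ12-pair sites, of which 85.2% had an EZH2 peak that near. The latter share was 84.1% and 82.3% at sites of SUZ12 replicate 1 or 2 alone. The 68 sites were weaker, with a median FDR in the weaker clone of 0.00370, against 0.00227 for sites with an EZH2 peak within 5 kb. The next strongest of them, picked for description after their distances were seen, lay on the plus strand at chr7:88309402-88309590, with 4.58e-05 and 6.58e-08, summits 3 bp apart and the nearest EZH2 peak 72.1 kb away. It was followed by 3 minus-strand sites, chr13:51797900-51798098, chr1:84246993-84247264 and chr9:121766623-121766839, whose weaker FDR was 0.000112 to 0.000128.

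Of the 68 sites, 42 also had no other SUZ12 peak within 50 kb, so that no other peak of any library was near. At 3 sites, singled out after their values were seen, no EZH2 peak was called on the strand within 1 Mb. All were on the plus strand, at chr14:3918088-3918241, chr8:95351326-95351512 and chrX:109484530-109484679. Other SUZ12 peaks were also distant, the nearest being 2192, 470 and 59.0 kb away in the same order. The one on chromosome 14 had an FDR of 0.000807 and 0.000658 in SUZ12 replicates 1 and 2, and the nearest EZH2 peak was 4733 kb away. That on chromosome X had the weakest peaks of the 3, with an FDR of 0.00846 and 0.00829.

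Some sites were near the limit of the rule. The 5 members closest to an EZH2 peak had it 1 to 13 bp away. On the minus strand at chr10:59413263-59413565 a single base separated the site from an EZH2 replicate 2 peak, and an EZH2 replicate 1 peak with an FDR of 2.51e-13 lay 558 bp away. The others were on the plus strand at chr4:149442855-149443380 (7 bp) and chr4:153394097-153394361 (12 bp), the plus strand at chr9:59526993-59527123 (11 bp) and the minus strand at chr14:55526757-55527066 (13 bp). In all, 15 of 461 sites had an EZH2 peak within 100 bp.

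Just outside the rule, an EZH2 peak shared 1 base with the SUZ12 peaks on the minus strand at chr14:122184085-122184521, and 4 bases on the plus strand at chr11:35153809-35154348, where SUZ12 replicate 2 had an FDR of 1.46e-14. Sites on the minus strand at chr19:4800245-4800543 and on the plus strand at chr4:118806990-118807109 and chr4:65275663-65276213 shared 19, 26 and 35 bases. Such narrow contacts were rare, since 3 of the 669 sites with SUZ12 and EZH2 shared fewer than 25 bases and the median was 302, summed over EZH2 peaks.

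The sites fell into 445 stranded windows of 50 kb, of which 430 held 1 site, 14 held 2 and 1 held 3. No like count for other sets of sites is given, so this is not read as a trait of these sites. The window with 3 was on the minus strand at chr7:140250001-140300000. Replicates 1 and 2 had 3 and 5 peaks of EZH2 in it, and 5 and 6 of SUZ12. Its members, at chr7:140250217-140250407, chr7:140289729-140290002 and chr7:140298269-140298459, had FDRs of 0.00557, 4.14e-06 and 3.79e-07 in SUZ12 replicate 1, and all were weak in replicate 2, at 0.00897, 0.00317 and 0.00502.

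EZH2 had a peak in 339 of the 445 windows (76.2%), and both EZH2 libraries in 207 (46.5%). No like share is given for the windows of other sites, so these values are not read as a trait of the SUZ12-pair sites. Of the windows with 2 sites, 2 held no EZH2 peak and were chosen for description after this was seen. On the plus strand at chr17:23800001-23850000, SUZ12 replicates 1 and 2 had 3 and 2 peaks. The sites there were 770 bp apart, at chr17:23818111-23818492 with an FDR of 0.00172 and 2.06e-07 and at chr17:23819263-23819436 with 3.19e-07 and 0.000551, and the nearest EZH2 peak was 54.0 kb away. The other window, on the plus strand at chr6:134850001-134900000, had 2 and 3 SUZ12 peaks. Its stronger site at chr6:134870589-134870794 had an FDR of 0.00129 and 2.25e-08 and lay 103 kb from EZH2.

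The chromosomes contributed roughly as they did to all sites. Chromosome 11 led with 44 sites (9.54%, Wilson interval 7.19 to 12.6%), beside 7.78% of all sites. Chromosome 8 followed with 40 (8.68%, 6.44 to 11.6%), beside 6.77%. There SUZ12-pair sites made up 40 of the 71 sites common to both SUZ12 libraries (56.3%), against 40.8% over all chromosomes. Chromosomes 1 and 17 had 31 each. The interval excluded the share of all sites for chromosome 17, at 6.72% (4.78 to 9.39%) against 4.70%, and for chromosome 5, with 19 sites, at 4.12% (2.65 to 6.35%) against 6.42%. The chromosomes were not tested. Those named were picked from all chromosomes, and the intervals are not adjusted for that number. The EZH2 pair had 5.49% of its sites on chromosome 17 and 6.04% on chromosome 5. On chromosomes 11 and 8 it had 10.4% each, so the higher shares there were not particular to the SUZ12 pair.

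**Figure D5:**
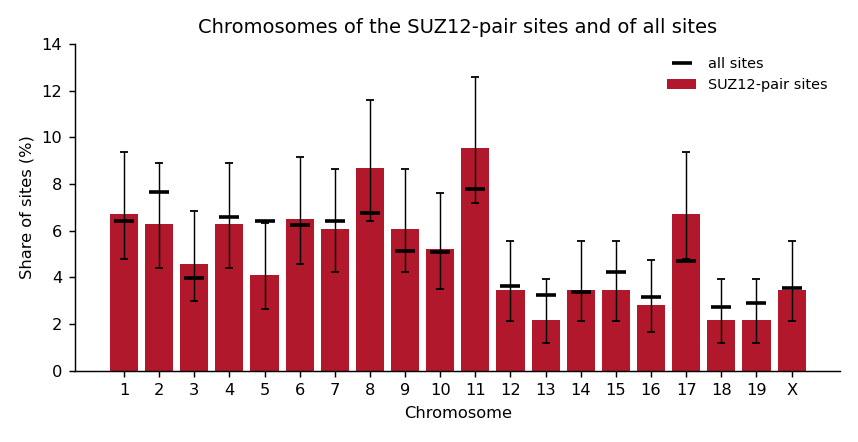
Share of the 461 SUZ12-pair sites on each chromosome (red bars, %, with 95% Wilson intervals) and of all 44277 sites (black marks). Chromosomes 11 and 8 carry the most, at 9.54% and 8.68%, and the marks for chromosomes 5 and 17 lie just outside the intervals.

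The plus strand carried 260 of the sites and the minus strand 201, a plus share of 56.4% (51.8 to 60.9%). All sites had 51.6%, the EZH2 pair 50.3% and sites in all 4 libraries 52.0%. The share was as high in other sets, at 56.6% for EZH2 replicate 1 with SUZ12 replicate 2, and at 59.1% and 58.6% for sites of both SUZ12 libraries with EZH2 replicate 1 or 2, so it was not particular to the SUZ12 pair. SUZ12 replicate 2 had the highest plus share of the libraries, 53.5% of its peaks, and its part in the higher share was not tested. Opposite-strand peaks were rare at these sites and in other sets. A single library had one overlapping 0 to 0.780% of the sites of the other pairs, and 0.995 to 1.99% of those in all 4 libraries. None of the EZH2 libraries or SUZ12 replicate 1 had a peak on the opposite strand of any of the 461 sites, which allows a share of up to 0.826% (Wilson), and SUZ12 replicate 2 had 1, on chromosome 11, opposite the site at chr11:97551300-97551452. The difference, SUZ12 minus EZH2, was 0.108 percentage points (two-sided p = 1 by exact permutation, where 2 libraries on each side allow no p below 0.3333). With such a peak in SUZ12 replicate 2 alone, every split of the libraries gives a difference of the same size. The test therefore could not decide whether the proteins differ.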

How the data were processed

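Peaks of 4 dCLIP libraries were analysed. The submitters' processing notes list bedtools 2.17.0, SAMtools 0.1.18, Trim Galore 0.3.3 and TopHat2 2.0.8, with the build mm9. Per the names of the deposited peaks, the caller was PeakRanger. The sources used here do not give its settings or its control. The deposited lists, 1 per library and strand (8 in all), give each peak's position, summit, p-value and FDR. They hold no reads, so depth is unknown and peak numbers set the precision.

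Merging chains peaks by strand. Strength ranks are percentiles of FDR within a library. Neighbours are peaks of other sites on the strand. Opposite-strand peaks were compared between the proteins by exact permutation over libraries, with 1 value per library. The p is the share of assignments of libraries to proteins that give a difference at least as large. The same test, planned for same-strand neighbours, is not reported, because the choice of sites bears on its direction. The site step was tested on simulated lists. The sites and descriptions were chosen with earlier results of these data known. Named sites are the 20 with the lowest FDR in the weaker clone, the 5 on each side of the rule's limit and windows with 3 or more members. The longest sites, those far from EZH2 and the paired windows without EZH2 were picked after their values were seen. Genes, position within genes and motifs, planned for an mm9 reference, were not analysed here. Software was matplotlib 3.10.9, SciPy 1.17.1, pandas 2.3.3, NumPy 2.4.6 and Python 3.11.15.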

Additional observations from a re-analysis of the deposited data

How the results depend on the processing

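The 461 sites became 430 to 535 under the alternatives of a 25-bp overlap, joining peaks up to 100 bp apart, peaks set to 100 bp around the summit, joining across strands, an FDR of at most 0.01 and leaving out peaks wider than 3000 bp, and 356 at equal list lengths. The count was 797 when peaks up to 1000 bp apart were joined, and 339 of the 461 sites overlapped one of these, and 213 with only the stronger 50% of every list by FDR. With SUZ12 peaks limited to an FDR of at most 0.001 and all EZH2 peaks kept, an alternative chosen after seeing the data, 146 were left. Without each library in turn the count was 582 to 12234. It was 582 and 598 without EZH2 replicate 1 and 2, and 12234 and 9862 without SUZ12 replicate 1 and 2, where a single SUZ12 library then sufficed. The median length stayed at 188 to 190 bp in 3 alternatives. The neighbour difference within 5 kb, SUZ12 minus EZH2, turned to 0.108 percentage points within 50 kb and was -5.86 at equal list lengths. Without each library it was -1.74 to -7.38, with -1.74 and -7.38 without SUZ12 replicate 2 and 1, and -2.39 without EZH2 replicate 2. With the replicate block it stayed at -4.56, the mean of 0.434 and -9.54 for replicates 1 and 2, and labels do not say what a number shares. The opposite-strand difference ran from 0 to 0.217 without each library and was 0.325 within 1000 bp. Gene overlap, base composition and motifs under other windows were not run, for want of an mm9 reference. Peak lists do not show reads under a peak, so an absent EZH2 peak is not shown to be absent EZH2 signal.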
